A study of Homo sapiens with 16 samples.

Results

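The genes described here are 10 keratins of basal, stressed and simple epithelium, taken by symbol from the 23709 genes of the deposited files: KRT5, KRT14, KRT15, KRT17, KRT6A, KRT7, KRT8, KRT18, KRT19 and KRT81. All 10 were found. The series measured polyA RNA in 16 libraries, 1 per group. They came from H1299, a human non-small cell lung carcinoma line, and HBE, a human bronchial epithelial line that the labels give as epithelial lung cells, both at passage 15 to 18. H1299 cells received either an empty plasmid (vector) or one that overexpresses FLII with a Flag tag. HBE cells were made stable with lentivirus, either for a hairpin that knocks FLII down (knockdown) or for its control (labelled NC). FLII is an actin-binding protein of the gelsolin family. From each of these 4 cell groups, 4 RNA fractions were sequenced: whole mRNA, cytosol, nuclear, and RNA bound to ribosome-nascent chain complexes (RNC), which were collected by ultracentrifugation through sucrose after cycloheximide. The overexpression used lipid transfection and the knockdown was stable, and how the cytosol and nuclear RNA were separated is not given in the sources used here.

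Keratins are the intermediate filament proteins of epithelial cells, and each filament is built from pairs of 1 acidic type I chain with 1 basic type II chain. In airway epithelium KRT5 and KRT14 form the pair of basal cells, the stem cells that lie on the basement membrane, and KRT8 and KRT18 form the pair of simple and luminal cells. KRT15 is a further type I keratin of basal cells, KRT17 and KRT6A are known from wounded and stressed epithelium, KRT7 and KRT19 from simple and ductal epithelium, and KRT81 is a type II keratin of the hair shaft. The type II members (KRT5, KRT6A, KRT7, KRT8 and KRT81) and the type I gene KRT18 lie on chromosome 12, and KRT14, KRT15, KRT17 and KRT19 lie on chromosome 17.

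Several of these genes have near-identical copies, which bears on every count below, since how the authors treated reads that match more than 1 gene is not given in the sources used here. A 50-base window was counted as shared when another gene's transcript in GENCODE release 29 (GRCh38) holds the same 50 bases. By this measure 44.6% of KRT81 windows were shared, mostly with KRT86 (38.4%), and 39.1% of KRT6A windows, mostly with KRT6C (35.2%). KRT18 (35.1%) and KRT8 (32.7%) share theirs mostly with pseudogenes, KRT14 (23.8%) most of all with KRT16, and KRT17 (17.4%) with its pseudogenes. KRT5 (3.99%), KRT19 (1.79%), KRT7 (0.997%) and KRT15 (0.725%) were nearly free of shared windows, so their counts are the least exposed to such copies. With windows of 100 bases, KRT81 (30.3%) and KRT6A (18.2%) kept large shares and KRT17 dropped to 0.353%.

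The hair keratins show how far such copies can be told apart. Over the aligned bases of their coding sequences, with gaps left out here and below, KRT81 and KRT86 were 94.2% identical. They shared an unbroken run of 605 bases. KRT81 and KRT83 were 93.5% identical. The stretch below, at coding positions 223 to 282 of KRT81, counted from the start codon, is the same in all 3 genes, so a read from it cannot be assigned to any of them.
KRT81, KRT86 and KRT83: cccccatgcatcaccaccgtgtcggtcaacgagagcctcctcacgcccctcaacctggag
Stretches of 60 bases were compared that start at a codon and align without gaps in all 3 genes. Among these, KRT81 and KRT86 differ most at coding positions 1249 to 1308. In the KRT81 line capitals mark bases that differ from at least 1 copy, and in the other lines they mark bases that differ from KRT81: 14 in KRT86 and 7 in KRT83.
KRT81: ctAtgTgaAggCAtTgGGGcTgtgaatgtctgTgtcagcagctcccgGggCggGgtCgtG
KRT86: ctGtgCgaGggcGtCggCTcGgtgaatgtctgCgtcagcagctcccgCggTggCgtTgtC
KRT83: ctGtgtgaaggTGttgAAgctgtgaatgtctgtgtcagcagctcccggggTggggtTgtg

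KRT6A and its copies are closer still, at 97.5% identity with KRT6B and 97.9% with KRT6C. Their most different stretch by the same rule, at coding positions 664 to 723, holds 9 differences in KRT6B and 5 in KRT6C, marked in capitals in the same way.
KRT6A: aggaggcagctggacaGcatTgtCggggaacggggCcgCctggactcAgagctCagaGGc
KRT6B: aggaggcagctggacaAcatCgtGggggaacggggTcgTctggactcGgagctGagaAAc
KRT6C: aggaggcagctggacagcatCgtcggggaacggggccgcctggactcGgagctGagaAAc
KRT14 and KRT17, both type I keratins of the chromosome 17 cluster, are 86.0% identical. By the same rule, with KRT16 as the third gene, their most different stretch (coding positions 382 to 441 of KRT17) differs at 15 bases.
KRT17: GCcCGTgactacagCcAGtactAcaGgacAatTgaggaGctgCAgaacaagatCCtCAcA
KRT14: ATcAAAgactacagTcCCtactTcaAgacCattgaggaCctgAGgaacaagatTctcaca
In this pair the capitals in KRT17 also mark bases that differ in KRT16, which is not shown. All sequences are the coding strand of GENCODE release 29 transcripts.

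Assigned reads per library ranged from 5914489 to 9259569 in the mRNA, cytosol and nuclear libraries and from 26711771 to 38514467 in the RNC libraries. No group has a second library, so no spread between replicates exists and no p-value is given. Intervals are exact 95% Clopper-Pearson intervals that cover counting error only. Outside the RNC fraction FLII followed the labels, at 67.6 to 143 RPKM (reads scaled to gene length and library size) with vector and 210 to 625 with overexpression in H1299, and at 62.6 to 86.7 with NC and 8.23 to 13.75 with knockdown in HBE. In the RNC fraction it went against the overexpression label, with 89.2 RPKM with vector and 5.61 in the library labelled overexpression. In RPKM, which uses total assigned reads, the HBE pair had the labelled direction by a small margin, 36.5 with NC and 30.0 in the library labelled knockdown. With TMM scaling, at factors of 1.13 for NC and 0.885 for the knockdown label, the order was the other way by a small margin. The FLII direction of this pair, on 5449 and 3494 reads, thus depends on the scaling. VIM, a mesenchymal filament gene, had 666 to 2949 RPKM in the 6 other H1299 libraries and 0.68 to 2.91 in the 6 other HBE libraries. All 4 RNC libraries lay between those ranges, at 25.9 to 203.5. RNC values are therefore given under their labels and in sections of their own. All 5 epithelial markers were higher in each of the 6 HBE libraries than in any of the 6 of H1299 (EPCAM 8.76 to 114 RPKM against 0.13 to 1.12), as were the basal markers TP63 (2.23 to 29.2 against 0 to 0.07) and NGFR, while ITGA6 overlapped. Of 5 mesenchymal markers VIM and ZEB1 were higher in H1299, COL1A1 was higher in HBE (1.43 to 8.22 against 0.11 to 0.44), and CDH2 and FN1 overlapped. Markers of other cell types were low but not all absent. Their summed RPKM in HBE was 2.07 to 11.2 for 3 club and goblet markers (MUC5B up to 7.78), 0.87 to 3.45 for 4 ciliated, 1.87 to 7.87 for 5 alveolar, 1.38 to 19.1 for 4 leukocyte (CD14 up to 18.9, PTPRC and CD3E at most 2 reads) and 1.61 to 20.4 for 2 endothelial markers (CDH5 up to 19.3). In H1299 these 5 sums reached at most 5.34, 6.72, 6.65, 1.18 and 0.78.

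Outside the RNC fraction, HBE cells expressed both the basal and the simple keratins, while H1299 cells had KRT8 and KRT18 at high levels. KRT15 was low in both lines, at 3.84 to 6.87 RPKM in H1299 and 12.9 to 22.1 in HBE. The rest were at a small share of their HBE levels in H1299. The 10 genes took 0.95% to 2.20% of assigned reads in the 6 HBE libraries outside the RNC fraction and 0.13% to 0.25% in those of H1299. In bulk RNA, fewer cells of a type and less RNA per cell cannot be told apart. The levels that follow are RPKM, given as the lowest, the median and the highest of the 6 libraries of each line.

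Of the basal pair, KRT5 had 277, 412 and 698 RPKM in HBE and 0.47, 0.56 and 10.1 in H1299. KRT14, its usual type I partner, had 8.06, 48.8 and 74.5 in HBE and 0, 0.03 and 1.17 in H1299. The KRT14 level was below that of KRT5 in each HBE library, by 8.24 to 36.8 times. KRT15 was the least different of the basal genes, with 12.9, 15.6 and 22.1 in HBE and 3.84, 4.35 and 6.87 in H1299, and the lines did not overlap. Of the stress keratins, KRT17 had 2107, 3305 and 4016 in HBE and 1.92, 3.89 and 45.6 in H1299. KRT6A had 15.7, 33.9 and 60.3 in HBE and 0, 0.05 and 0.98 in H1299. KRT17 was thus the type I keratin with the highest level in each of these HBE libraries and KRT6A one of the lowest members. The hair keratin KRT81 had 1168, 2736 and 4356 in HBE and 2.16, 3.43 and 40.3 in H1299.

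Among the simple keratins, KRT7 had 639, 1378 and 1618 RPKM in HBE and 5.56, 9.83 and 34.4 in H1299, and KRT19 had 199, 315 and 462 against 0.42, 0.88 and 6.32. KRT8 had 514, 750 and 1010 in HBE and 241, 260 and 388 in H1299. KRT18, its partner, had 500, 1140 and 1239 in HBE and 520, 856 and 975 in H1299. KRT18 was the only member whose ranges overlapped between the lines. For all members but KRT15 the highest of the 6 H1299 values came from the same library, the cytosol of FLII-overexpressing cells.

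**Figure D1:**
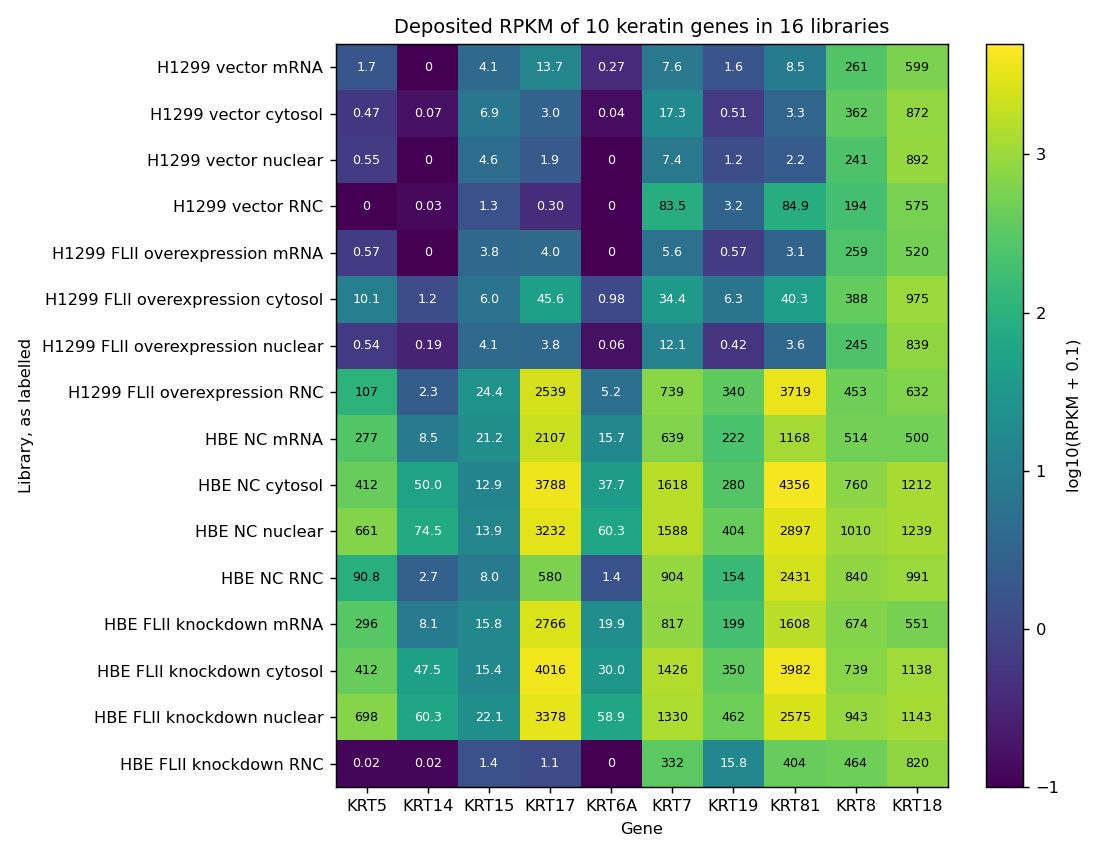
Heat map of RPKM for the 10 keratins (columns) in the 16 libraries (rows, as labelled), with colour for log10(RPKM + 0.1) and the RPKM printed in each cell. In the mRNA, cytosol and nuclear libraries KRT17 lies between 2107 and 4016 RPKM in HBE and between 1.92 and 45.6 in H1299, while KRT18 lies between 500 and 1239 in HBE and between 520 and 975 in H1299.

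The order of the levels differed between lines and between fractions. In HBE NC mRNA, KRT17 made up 38.5% of the summed RPKM of the 10 genes, followed by KRT81 (21.4%), KRT7 (11.7%), KRT8 (9.39%), KRT18 (9.14%), KRT5 (5.05%), KRT19 (4.06%), KRT15 (0.39%), KRT6A (0.29%) and KRT14 (0.16%). KRT8 and KRT18 were neighbours whose order changed with the library: KRT18 was 0.972 times KRT8 in HBE NC mRNA and 1.59 times KRT8 in HBE NC cytosol. In HBE NC cytosol KRT81 came first, at 34.8%, before KRT17 at 30.2%. In the nuclear RNA of the same cell group KRT17 was first again, at 28.9%, and KRT81 had 25.9%. In H1299 vector mRNA KRT18 alone made up 66.7% and KRT8 29.1%.

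Among the members, the balance of type I and type II genes also differed between the lines. Summed over the members, type II RPKM was 0.28 to 0.51 times type I RPKM in the 6 H1299 libraries outside the RNC fraction. In HBE the same ratio was 0.914 and 0.965 in mRNA (NC and knockdown), 1.344 and 1.184 in cytosol and 1.252 and 1.107 in nuclear RNA. The 2 lines did not overlap. These sums leave out keratins that are not members, such as KRT86, the copy of KRT81, with 928 RPKM in HBE NC cytosol. In H1299 the ratio is that of KRT8 to KRT18 almost alone, since KRT18 was 2.01 to 3.70 times KRT8 there. In HBE the KRT18 to KRT8 ratio ran from 0.818 to 1.59 and lay below the H1299 range in all 6 libraries.

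Between the control libraries, 9 of the 10 genes were higher in HBE than in H1299 in each of mRNA, cytosol and nuclear RNA, and KRT18 was not called in any of the 3. A gene was called when its TMM-scaled log2 fold, with 0.5 reads added, was at least 1 in size and its interval excluded 0, among those with 20 or more reads in the 2 libraries together. A gene with few reads in one library could pass this filter only through the other, where it had to be higher, so counts of members are descriptions. Of all genes tested, 22.4% were called higher in HBE in mRNA, 22.2% in cytosol and 23.1% in nuclear RNA. The median log2 fold over all genes was 0.01, -0.13 and 0.03. With total assigned reads in place of TMM it was -0.25, -0.60 and -0.21, and the share of higher among all calls went from 51.3% to 40.2%, from 45.5% to 28.3% and from 50.9% to 40.4%.

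For KRT5 the reads were 23 in H1299 vector and 5272 in HBE NC mRNA, 10 and 5617 in cytosol, and 8 and 11167 in nuclear RNA. These gave log2 folds of 7.60 (7.04 to 8.29), 10.15 (9.37 to 11.31) and 10.38 (9.49 to 11.68). KRT14 had 0 and 115 reads in mRNA, 1 and 484 in cytosol, and 0 and 894 in nuclear RNA. Its level was at least 33.1-fold higher in HBE mRNA and at least 302-fold higher in nuclear RNA, against a floor of 3 reads per library. Its log2 fold in cytosol was 9.24 (7.55 to 15.34), on 1 read in H1299. KRT15 showed the smallest differences among the basal genes, with log2 folds of 2.62, 1.37 and 1.83.

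For KRT17 the reads were 128 and 27445 in mRNA, 43 and 35265 in cytosol, and 19 and 37312 in nuclear RNA. The log2 folds were 7.53 (7.28 to 7.79), 10.77 (10.36 to 11.26) and 10.92 (10.32 to 11.69). KRT81 went with it closely, at 7.37, 10.82 and 10.60, with 96 and 18469 reads in mRNA. KRT19 reached 7.34, 9.42 and 8.59, and KRT7 reached 6.65, 7.01 and 7.98. KRT6A had log2 folds of 5.95 in mRNA and 9.42 (7.73 to 15.52) in cytosol, the latter on 1 read in H1299, and was at least 366-fold higher in HBE nuclear RNA, where H1299 vector had 0 reads. In mRNA the log2 folds of KRT5, KRT17, KRT19 and KRT81 thus lay close together, between 7.34 and 7.60, and all were larger in cytosol and in nuclear RNA, between 8.59 and 10.92.

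KRT8 and KRT18, the simple pair, had the smallest differences in mRNA. KRT8 had 3339 reads in H1299 vector mRNA and 9148 in HBE NC mRNA, and its log2 folds were 1.24 (1.19 to 1.30) in mRNA, 1.54 in cytosol and 2.31 in nuclear RNA. KRT18 had 5222 and 6070 reads in mRNA, and its log2 folds were 0.01 (-0.05 to 0.06), 0.94 (0.90 to 0.98) and 0.72 (0.68 to 0.76). Some of these calls lie near the threshold. With total assigned reads in place of TMM scaling the KRT8 fold in mRNA was 0.98 and the KRT15 fold in cytosol 0.90, below the threshold, and with median-of-ratios scaling the KRT18 fold in cytosol was 1.01, above it.

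**Figure D2:**
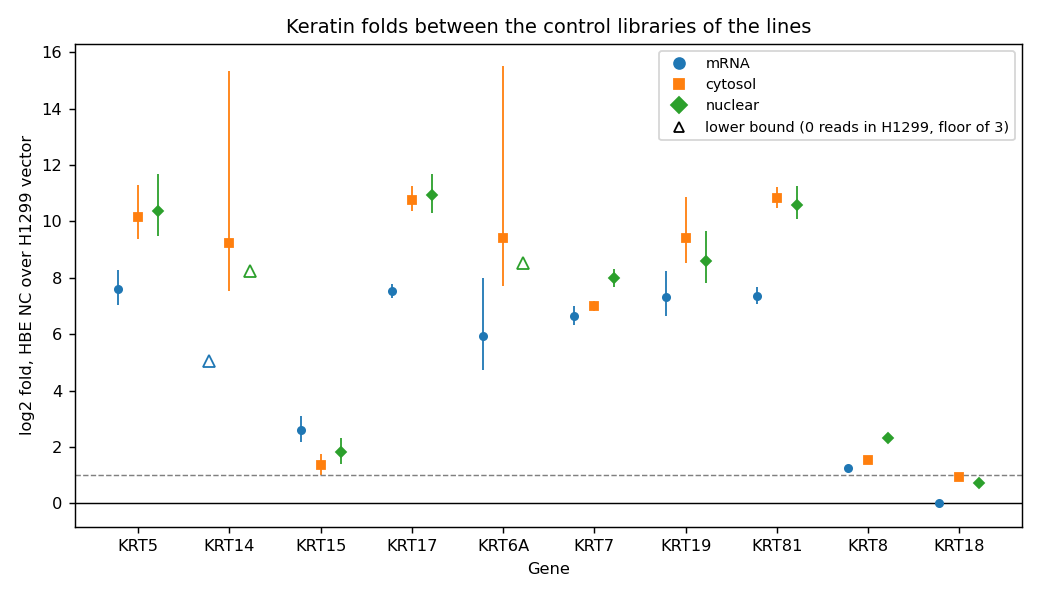
TMM-scaled log2 folds of HBE NC over H1299 vector for each keratin in mRNA, cytosol and nuclear RNA, with exact 95% counting intervals, open triangles for lower bounds where H1299 had 0 reads, and a dashed line at the threshold. KRT18 lies between 0.01 and 0.94 and KRT8 between 1.24 and 2.31, while KRT17 lies between 7.53 and 10.92.

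The FLII-changed libraries gave the same counts, 9 of 10 higher in HBE in each of these fractions, beside 20.7%, 22.5% and 23.4% of all genes. KRT17 had log2 folds of 9.51 in mRNA, 6.79 in cytosol and 10.04 in nuclear RNA there, and KRT5 had 9.05, 5.68 and 10.50. The cytosol value was the smallest of the 3 in both genes, unlike in the control libraries.

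Of the other keratin genes, 46 symbols were in the files, and 8 of them had no read in any library. In the control mRNA comparison 5 of the 46 had enough reads, and 4 were higher in HBE, beside 22.4% of all genes. These were the hair keratins KRT86 (log2 fold 7.91) and KRT83 (7.60, 5.66 to 13.45), the KRT6A copy KRT6B (7.23, 5.29 to 13.09), and KRT80 (2.02). KRT10, the keratin of differentiating epidermis, was not called, at 0.25. The median of these 5 cannot be read apart from the members, since 3 of them are near-identical copies. Of 16 genes whose products anchor keratin filaments at desmosomes and hemidesmosomes, 15 had enough reads. In HBE 13 were higher, beside 22.4% of all genes, with 0 lower and a median log2 fold of 4.37. Among them were the desmosomal plaque genes EVPL (7.04), DSP (6.31), JUP (5.71) and PKP3 (5.12). PLEC, a linker of filaments to hemidesmosomes, and the integrin gene ITGA6 were not called, at -0.69 and -0.44. In the control cytosol and nuclear comparisons the median of the anchor genes was smaller, at 1.65 and 2.35. DSC3 was called lower in HBE cytosol (-1.21, -2.46 to -0.19).

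In the same control mRNA comparison, other intermediate filament genes went the opposite way. Of 16, 10 had enough reads, 7 were lower in HBE, beside 21.2% of all genes, and 1, the nestin gene NES, was higher, with a median log2 fold of -3.31. VIM fell by 9.77 and SYNM, which codes for synemin, by 5.58 (-8.11 to -4.24), on 3 reads in HBE. The neuronal filament genes INA and NEFH had 646 and 212 reads in H1299 vector mRNA and 0 in HBE NC. Setting these 2 genes to the floor leaves the median as it is. In the control cytosol and nuclear comparisons the median of this list was smaller in size, at -1.27 and -0.48. Of 16 regulators of basal and epithelial identity, 15 had enough reads. In HBE 13 were higher, beside 22.4% of all genes, and 2 were lower, beside 21.2%. Their median was 6.25, or 5.57 with OVOL1 and OVOL2, at 0 reads in H1299, set to the floor. TP63, the master regulator of basal cells, had a log2 fold of 9.45 (7.52 to 15.31) and TFAP2C of 8.002 (6.44 to 11.35), on 1 and 2 reads in H1299. ELF3 was at 8.58 and TRIM29 at 8.21, while SOX2 was at -4.21 (-7.63 to -2.59), on 2 reads in HBE, and KLF4 at -2.94. These lists were chosen with results of these data known, so their counts are descriptions.

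Apart from KRT14 and KRT6A, which had 0 reads in some of them, the HBE-high keratins had reads in each H1299 library outside the RNC fraction, and their traces were compared with those of other genes typical of HBE. A trace is the level in a library as a percent of that in the HBE NC library of the same fraction, both in CPM (reads scaled to the library's total). HBE-typical genes had at least 5 CPM and at least 50 times the H1299 vector level in HBE NC, in the control libraries of the 2 other fractions (mRNA and nuclear for RNC). They also had at least 5 CPM in the HBE NC library of the same fraction. The keratins were left out of this set, and 0.05 CPM was added to both sides of the ratio. The set holds only genes that were low in H1299 vector in those other fractions, so a low median in H1299 libraries is in part set by this choice.

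In H1299 vector mRNA, KRT5 stood at 0.607% (0.385 to 0.912) of the HBE NC level on 23 reads, KRT17 at 0.649% (0.542 to 0.772) on 128, KRT19 at 0.721% (0.393 to 1.21) on 14 and KRT81 at 0.724% (0.586 to 0.884) on 96. The intervals of these 4 genes, which lie on both chromosomes, overlapped. The median of 246 HBE-typical genes was 0.648%, with quartiles of 0.265% and 1.14%. KRT6A, on 4 reads, was at 1.75% (0.473 to 4.51), an interval that also holds this median. KRT7 was at 1.19% (0.939 to 1.49), just above the upper quartile, while KRT15 was at 19.4%, KRT8 at 50.8% and KRT18 at 120%. KRT14 had 0 reads, which allows up to 3.63%, so a share like that of KRT5 was not detectable at this depth.

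In mRNA of FLII-overexpressing H1299 cells the same 4 genes lay lower, at 0.207% for KRT5, 0.192% for KRT17, 0.257% for KRT19 and 0.263% for KRT81. The HBE-typical median there was 0.281% (quartiles 0.0590% and 0.633%). KRT7, at 0.870%, and KRT15, at 18.1%, stayed above it. The H1299 vector cytosol and nuclear libraries had less: KRT17 was at 0.0779% and 0.0593%, KRT81 at 0.0753% and 0.0746%, KRT5 at 0.114% and 0.0835%, with HBE-typical medians of 0.213% and 0.114%. KRT7 was at 1.07% and 0.464%, above KRT19 (0.183% and 0.294%) and far below KRT8 (47.7% and 23.9%). In the nuclear library of FLII-overexpressing cells KRT5 was at 0.0817%, KRT17 at 0.116%, KRT19 at 0.105% and KRT81 at 0.124%, beside an HBE-typical median of 0.208%.

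The cytosol library of FLII-overexpressing H1299 cells stood apart. KRT5 was at 2.45% (2.06 to 2.88) on 145 reads, KRT14 at 2.35% on 12, KRT6A at 2.60% on 15, KRT19 at 2.25% on 58 and KRT7 at 2.13% on 366. The median of 244 HBE-typical genes was 2.08% (quartiles 1.23% and 3.66%). KRT17, at 1.20% (1.09 to 1.32), and KRT81, at 0.926% (0.845 to 1.01), were below the lower quartile, so the keratins of this library were not at one common share. KRT15 was at 46.7%, KRT8 at 51.0% and KRT18 at 80.5%. Where the HBE-typical RNA in H1299 libraries came from was not tested.

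**Figure D3:**
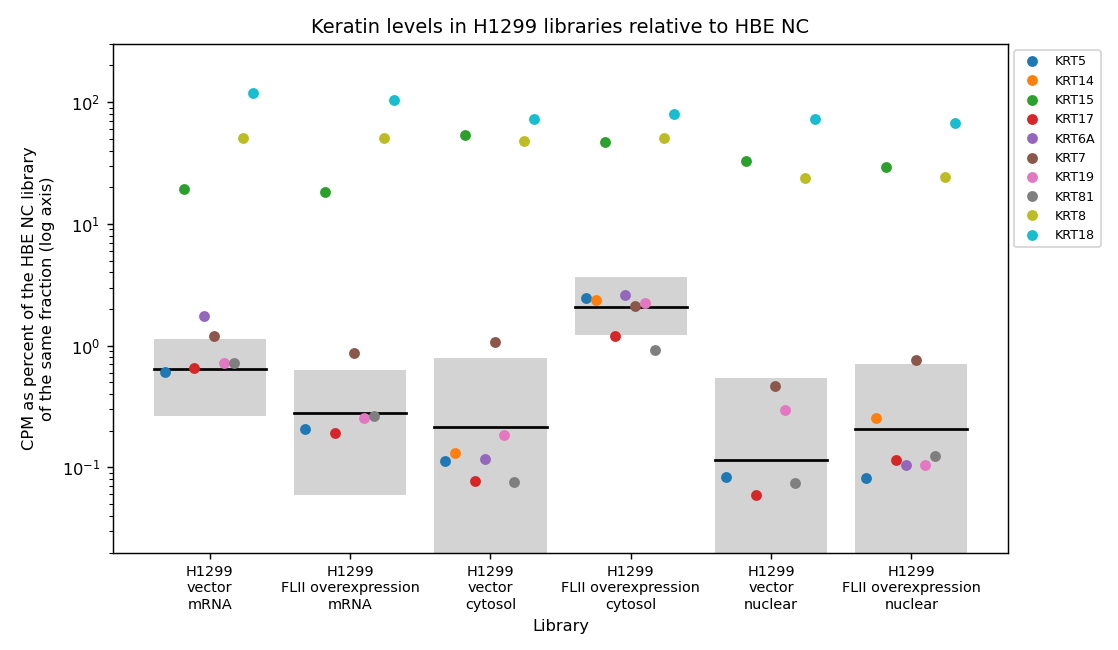
Level of each keratin in H1299 libraries as a percent of HBE NC in the same fraction, on a log axis (points, 1 per gene with at least 1 read), with the median (line) and quartiles (grey) of HBE-typical genes that are not keratins. In vector mRNA KRT5, KRT17, KRT19 and KRT81 lie at 0.607% to 0.724% around a median of 0.648%, and in the cytosol of FLII-overexpressing cells 5 genes lie at 2.13% to 2.60% around 2.08%.

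In H1299 cells the FLII comparison gave opposite directions in mRNA and in cytosol for KRT5, KRT17, KRT19 and KRT81, and no call for KRT8, KRT18 or KRT15. In mRNA, 4 of 8 genes with enough reads were lower with FLII overexpression, beside 0.468% of all genes called lower. KRT5 fell from 23 to 11 reads, a log2 fold of -1.49 (-2.72 to -0.44). KRT17 fell from 128 to 53, or -1.73 (-2.24 to -1.27). KRT19 fell from 14 to 7, or -1.40 (-3.02 to -0.07), and KRT81 from 96 to 49, or -1.43 (-1.97 to -0.93). The vector mRNA traces of these 4 genes lay near the HBE-typical median, as the interval for KRT6A allowed too, and that median moved in the same direction between the 2 libraries, from 0.648% to 0.281%. Its part in the result was not tested. KRT7 (-0.43), KRT18 (-0.19), KRT15 (-0.08) and KRT8 (0.00) were not called. Only KRT17 and KRT81 were called when 100 reads over the pair were asked for.

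In cytosol, 5 of 8 genes were higher with FLII overexpression, beside 1.04% of all genes called higher. KRT5 had 10 reads with vector and 145 with overexpression, a log2 fold of 4.42 (3.58 to 5.59). KRT17 had 43 and 448 reads, or 4.00 (3.57 to 4.51), KRT81 had 58 and 481, or 3.68 (3.30 to 4.11), and KRT19 had 7 and 58, or 3.58 (2.56 to 5.07). These 4 genes had far fewer reads than the abundant KRT8 and KRT18 in both libraries. KRT7 had 273 and 366 reads and a fold of 1.06 (0.84 to 1.30), which was 0.99 with total assigned reads. KRT14, with 1 and 12 reads, and KRT6A, with 1 and 15, had too few reads for the comparison. KRT8 (0.17), KRT18 (0.24) and KRT15 (-0.12) were not called. The HBE-typical median rose from 0.213% to 2.08% between these 2 libraries, and its part in the result was not tested. Of the other lists, the copies KRT86 (3.73) and KRT83 (2.69), the anchor genes DSP (1.98) and COL17A1 (1.16), and TRIM29 (5.13, 3.24 to 11.16, on 1 read with vector) were higher in the same comparison.

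In nuclear RNA of H1299 none of 6 genes with enough reads was called, beside 0.599% of all genes called either way. KRT17 was at 0.92 (0.10 to 1.81), KRT81 at 0.68 (-0.04 to 1.45) and KRT7 at 0.67 (0.26 to 1.10). KRT15, KRT8 and KRT18 lay between -0.21 and -0.01.

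In HBE cells the keratins had small folds between knockdown and control. None of the 10 was called in mRNA, cytosol or nuclear RNA, beside 4.95%, 1.25% and 0.873% of all genes called either way. The share of higher among all calls in mRNA went from 40.8% to 57.9% with total assigned reads. The log2 folds ran from -0.56 to 0.33 in mRNA, from -0.35 to 0.31 in cytosol and from -0.34 to 0.64 in nuclear RNA. Read depth was not the limit for the abundant members. KRT17 had 27445 reads with NC and 32693 with knockdown in mRNA, a log2 fold of 0.26 (0.24 to 0.29), and 0.07 and 0.03 in cytosol and nuclear RNA. KRT81 was at 0.33 (0.30 to 0.36), -0.15 and -0.20, KRT8 at 0.26, -0.06 and -0.13, and KRT5 at -0.03, -0.02 and 0.05. The sign of KRT81 and KRT8 in mRNA was thus opposite to that in the other fractions. KRT15 had the widest spread, with 323 and 218 reads in mRNA (-0.56, -0.81 to -0.31) and 187 and 333 in nuclear RNA (0.64, 0.38 to 0.91). With no second library of any group, the spread between cultures against which such folds would be read is not known. Of the other lists, NES (1.32) was higher in HBE knockdown mRNA, and VIM (-1.07, on 23 and 49 reads), GRHL1 (-1.24) and OVOL1 (-1.05), both transcription factors of epithelial differentiation, were lower.

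**Figure D4:**
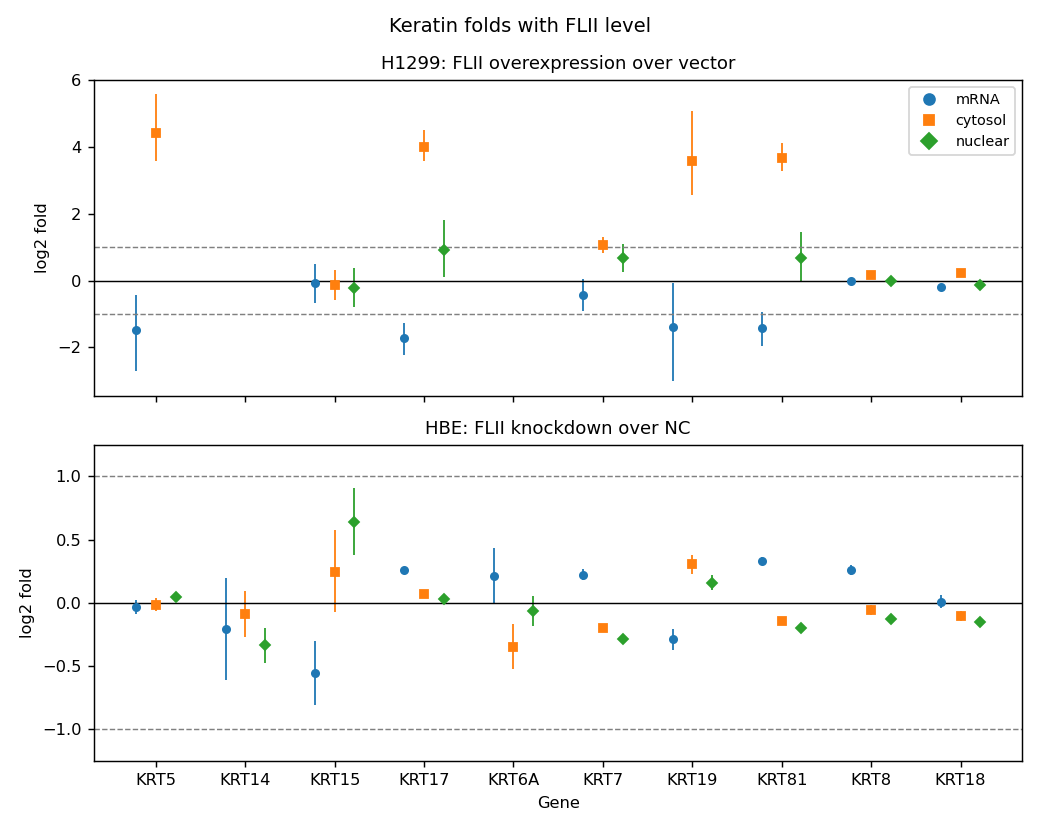
TMM-scaled log2 folds between FLII-changed and control libraries for each keratin, in H1299 (overexpression over vector) and HBE (knockdown over NC), with exact 95% counting intervals and dashed lines at the threshold; genes with too few reads are not drawn. In H1299 KRT17 lies at -1.73 in mRNA and 4.00 in cytosol, while in HBE all values lie between -0.56 and 0.64.

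The balance between nucleus and cytosol was described for each cell group. In HBE, KRT81 was the only member called, lower in nuclear than in cytosol RNA with NC (-1.13, -1.15 to -1.11) and with knockdown (-1.19, -1.21 to -1.17). Of all genes, 17.0% and 17.6% were called lower in nuclear RNA. KRT17 was next, at -0.77 and -0.81, followed by KRT7 (-0.57 and -0.66) and KRT18 (-0.51 and -0.55). KRT5 (0.14 and 0.20) and KRT6A (0.14 and 0.42) were above 0 in both, and KRT8 (-0.13 and -0.21), KRT19 (-0.01 and -0.16), KRT14 (0.04 and -0.21) and KRT15 (-0.43 and -0.04) lay between. The order of the abundant members was the same with NC and with knockdown: KRT81 lowest, then KRT17, KRT7, KRT18, KRT8, KRT19 and KRT5. With total assigned reads the median of all genes moved from 0.14 to 0.66 with NC and the share of higher among all calls from 57.3% to 88.3%, and KRT81 was at -0.59 and -0.63, no longer called. KRT18 was then at 0.03 and 0.01, and KRT8, KRT19 and KRT15 were also above 0 in both groups, at 0.41 and 0.35, 0.53 and 0.40, and 0.11 and 0.51. Their side of 0 thus depends on the scaling.

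In H1299 vector, KRT7 alone of 6 genes with enough reads was called lower in nuclear RNA, at -1.55 (-1.94 to -1.19), beside 12.7% of all genes. KRT8 was at -0.91 and KRT18 at -0.30. With total assigned reads the median of all genes moved from 0.00 to 0.32 and the share of higher among all calls from 53.9% to 80.7%. With FLII overexpression 7 of 8 were called lower, beside 18.3% (share of higher among all calls 49.4%, or 83.8% with total assigned reads). Of these, KRT8 at -1.20 and KRT15 at -1.10 were at -0.66 and -0.56 with total assigned reads, no longer called. KRT5 was at -4.66 (-6.01 to -3.75), KRT19 at -4.25, KRT17 at -4.12 and KRT81 at -4.02. These 4 values rest on the cytosol library that stood apart above.

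The copies divided differently between fractions. For every 100 reads of KRT81, KRT86 had 12.8 and 11.7 reads in HBE mRNA (NC and knockdown), 23.3 and 22.5 in cytosol and 22.4 and 23.6 in nuclear RNA. KRT83 had 1.78 and 1.59, 6.80 and 6.43, and 6.75 and 6.68. In the 4 RNC libraries KRT86 had 12.04 to 14.01 and KRT83 1.23 to 1.56 reads per 100 of KRT81, near the mRNA values. For these 2 copies of KRT81 the HBE cytosol and nuclear libraries stood together, apart from the HBE mRNA and the RNC libraries. KRT14 had 0.419 and 0.303 reads per 100 of KRT17 in HBE mRNA, 1.37 and 1.23 in cytosol and 2.40 and 1.86 in nuclear RNA. KRT6B had 79.6 and 70.3 reads per 100 of KRT6A in mRNA, 121 and 133 in cytosol and 103 and 91.9 in nuclear RNA. Its RNC values did not follow the division of the KRT81 copies, at 124 in HBE NC and 66.4 in the library labelled H1299 FLII overexpression. Whether reads or counting differed between these sets of libraries is not given in the sources used here.

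In the RNC fraction the keratins followed neither line cleanly. KRT5 had 0 reads in the RNC library labelled H1299 vector, 9515 in that labelled H1299 FLII overexpression, 7165 in HBE NC and 1 in that labelled HBE FLII knockdown. KRT17 had 18, 153930, 31276 and 48 reads in the same order, and KRT6A had 0, 491, 119 and 0. KRT5, KRT17, KRT14 and KRT6A were thus high in the libraries labelled H1299 FLII overexpression and HBE NC and at or near 0 in the other pair. KRT81 did not follow this division as sharply: it had 6101, 273601, 159020 and 20594 reads. KRT7 had 5345, 48474, 52696 and 15115 reads, and KRT19 had 179, 19265, 7776 and 621. KRT8 (15657, 37502, 61830 and 26648) and KRT18 (31720, 35728, 49788 and 32146) were high in all 4.

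Between labels, 9 of 10 genes were higher in the RNC library labelled FLII overexpression than in that labelled vector, beside 26.1% of all genes, and KRT18 was at -0.08. In the libraries labelled HBE, 8 were lower with the knockdown label, beside 11.7% of all genes, with KRT8 at -0.50 and KRT18 at 0.08. Between the control labels 9 were higher in HBE NC, beside 32.8%, and between the FLII-changed labels 8 were lower in the library labelled HBE, beside 26.5%. The share of higher among all calls went, with total assigned reads, from 61.7% to 37.7% between the HBE labels, from 56.1% to 81.1% between the control labels and from 49.3% to 69.9% between the FLII-changed labels. The sign of each of these comparisons is only defined by the labels. VIM bears the labels out in none of the 4 libraries. FLII goes against the overexpression label, and between the HBE labels its side depends on the scaling. Between the FLII-changed labels the direction of the 8 called members was opposite to that in mRNA, cytosol and nuclear RNA.

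Relative to the RNC library of HBE NC, that labelled H1299 vector had 0 reads of KRT5, where 3 reads would be 0.0381%. KRT17 was at 0.0524% (0.0310 to 0.0828), KRT19 at 2.10%, KRT81 at 3.49% and KRT7 at 9.23% of HBE NC. The median of 218 HBE-typical genes was 1.63% (quartiles 0.172% and 4.46%). In that labelled HBE FLII knockdown KRT5 was at 0.0179% on 1 read, under the floor of 0.0537% that 3 reads would give. KRT17 was at 0.197%, KRT19 at 10.2%, KRT81 at 16.6% and KRT7 at 36.8%, with a median of 4.10% (quartiles 0.451% and 24.4%). In both libraries KRT7, KRT81 and KRT19 thus stood far above KRT5 and KRT17, relative to HBE NC. In the library labelled H1299 FLII overexpression KRT17 was at 438%, KRT6A at 367% and KRT19 at 220% of HBE NC. KRT81 was at 153%, KRT5 at 118% and KRT7 at 81.8%, beside a median of 178%. All these percents use total assigned reads. The TMM factors were 0.818 for this library and 1.22 for HBE NC. Whether KRT7 lies above or below HBE NC thus depends on the scaling.

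A ratio to KRT18, which was abundant in every library, needs no scaling between libraries. Per 1000 KRT18 reads, H1299 vector had 18.4 KRT81 reads in mRNA and 192 in the RNC library, 14.7 and 169 for KRT7, 2.68 and 5.64 for KRT19, 639 and 494 for KRT8, but 24.5 and 0.567 for KRT17. KRT5 went from 4.40 to 0, where 3 reads would be 0.0946. Relative to KRT18, KRT81 and KRT7 were thus higher and KRT17 and KRT5 lower in the RNC library than in the mRNA of the same label. In HBE NC, KRT81 was at 3043 in mRNA and 3194 in the RNC library, while KRT7 was at 1483 and 1058, KRT17 at 4521 and 628, KRT5 at 869 and 144, KRT19 at 446 and 156 and KRT6A at 52.6 and 2.39. Relative to KRT18, KRT81 was the only one of these members not lower in the RNC library. Such ratios also move with KRT18 itself. Scaled between the 2 libraries, KRT7 was higher in RNC, with a log2 fold of 1.43 by TMM and 0.50 with total assigned reads. The libraries labelled H1299 FLII overexpression and HBE FLII knockdown had 7658 and 641 for KRT81, 4308 and 1.49 for KRT17, 1357 and 470 for KRT7 and 266 and 0.0311 for KRT5, the last on 1 read. These values follow the division by KRT5 and KRT17 described above.

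**Figure D5:**
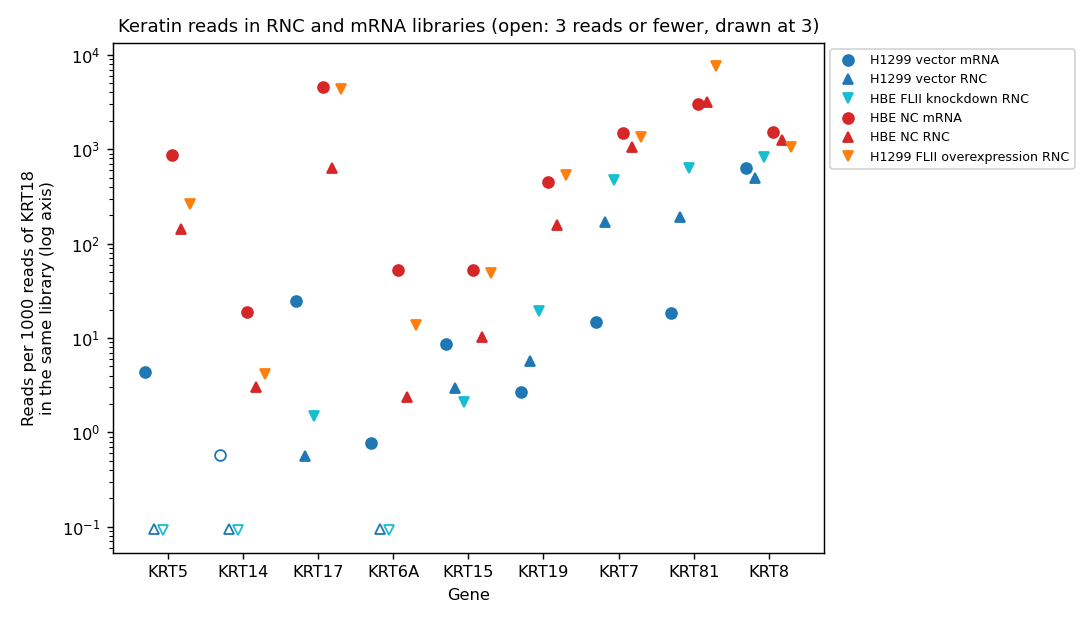
Reads of each keratin per 1000 KRT18 reads in the mRNA libraries of the controls and in all 4 RNC libraries, on a log axis, with open symbols for 3 reads or fewer, drawn at 3. KRT81 and KRT7 are at 18.4 and 14.7 in H1299 vector mRNA and at 192 and 169 in the RNC library with that label, while KRT17 is at 24.5 and 0.567.

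By TMM scaling, 5 of 8 genes were higher and 2 lower in RNC than in mRNA for H1299 vector, beside 32.6% and 31.6% of all genes, and 4 of 10 were higher and 1 lower for HBE NC, beside 24.8% and 17.0%. KRT81 was at 5.52 and 1.99, KRT7 at 5.64 and 1.43, KRT18 at 2.13 and 1.92, KRT8 at 1.76 and 1.64, and KRT17 at -3.26 and -0.93. With total assigned reads the median of all genes moved from -0.09 to -2.26 for H1299 vector and from 0.05 to -0.88 for HBE NC, and the share of higher among all calls from 50.8% to 11.5% and from 59.4% to 21.6%. KRT8 and KRT18 then had -0.43 and -0.06 in H1299 vector and KRT15 went from 0.57 to -1.60, so only the ratios within a library are read here.

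The genes whose levels were most like that of KRT5 over the 16 libraries, by Pearson r of log2(RPKM + 1) among 10460 genes with at least 5 RPKM in some library, were ST14 (0.993), TINAGL1 (0.993), H19 (0.990), GJB5 (0.988) and CLDN7 (0.988). ST14 codes for the epithelial membrane protease matriptase, and GJB5 and CLDN7 for junction proteins. Over the 12 libraries outside the RNC fraction CLDN7 was the only one of these 5 that stayed among the nearest 5. KRT8 was most like FSTL3 (0.932), PMEPA1 (0.928), DDB2 (0.927), GSDMD (0.926) and APOBEC3B (0.924), of which FSTL3 stayed. These correlations describe 16 points that share lines and fractions. Among the members, KRT5 went with KRT17 at 0.989 and with KRT18 at 0.358.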

How the data were processed

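PolyA RNA of 16 libraries was analysed from 1 table per library, assigned to groups by title. Per the file headers, the deposited tables hold the authors' read count and RPKM of each RefSeq gene, with its length. No source used here names the aligner, counting tool or read length. The submitters' processing notes name GRCh37 and hg19; the annotation used for sequences is GENCODE release 29 on GRCh38, so coordinates are left out.

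Counts of 2 libraries were compared with TMM scaling (edgeR 4.0.16, R 4.3.3), 0.5 reads added and at least 20 reads over the pair, in 22 comparisons. Clopper-Pearson intervals were computed with scipy 1.17.1 at 95%. Alternatives were total assigned reads, DESeq2 1.42.0 size factors, filters of 1 and 100 reads, 5 reads added, and RPKM with 1 added. The calculation was tested on simulated data. PCR duplicates cannot be seen in counts, and a floor is 3 counts.

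The members and lists were chosen with earlier results of these data known. All members are named, together with up to 4 called genes per list, by the interval bound nearest 0, and the 5 genes most like KRT5 and KRT8. Genes without enough reads, and those added as neighbours for contrast (PLEC, ITGA6, KRT10), were named after their values were seen.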

Additional observations from a re-analysis of the deposited data

Results flagged for a closer look

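Between vector and FLII-overexpressing H1299 cells, 4 keratins had opposite directions in 2 RNA fractions of the same cell groups. The log2 fold of KRT5 was -1.49 in mRNA and 4.42 in cytosol, that of KRT17 -1.73 and 4.00, that of KRT19 -1.40 and 3.58, and that of KRT81 -1.43 and 3.68. Each group is 1 library, so the difference between the fractions was not tested. In nuclear RNA none of the 4 was called.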

How the results depend on the processing

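Each comparison was recomputed under 6 alternatives. Of 1214 recomputed member folds, 48 had another sign, 4 of them folds that had been called. In all, 42 calls changed and 0 turned to the opposite call. The 4 are folds of RNC over mRNA in H1299 vector: KRT8 at -0.43 and KRT18 at -0.059 with total assigned reads, and -0.431 and -0.059 with RPKM. In the same comparison KRT15, not called at 0.57, was called lower at -1.60 with total assigned reads and at -1.13 with RPKM. The cause was not tested. The 4 members lower with FLII overexpression in H1299 mRNA became 2 when 100 reads were required, which leaves fewer genes tested, and 2 with RPKM. The 1 member lower in nuclear than cytosol RNA in HBE became 0 with total assigned reads and 0 with RPKM, for NC and for knockdown. In H1299 with FLII overexpression, KRT8 and KRT15 lost that call under both of these alternatives. Calls over all genes moved more. Filters of 1 and 100 reads changed the 104 genes called with FLII in H1299 mRNA to 168 and 4, the 136 in HBE cytosol to 227 and 9, the 78 in H1299 nuclear RNA to 141 and 4 and the 108 in HBE nuclear RNA to 175 and 14. With 5 reads added these 4 counts were 62, 71, 39 and 47. At 100 reads the 625 calls in HBE mRNA became 306 and the 336 in H1299 cytosol 67, and with RPKM they became 326 and 150, while the 78 in H1299 nuclear RNA became 130. Between the lines, 100 reads changed 6209 calls to 4046 (control cytosol), 5426 to 3346 (FLII-changed cytosol) and 5993 to 3954 (control nuclear). RPKM changed the RNC calls from 6956 to 3845 (H1299 labels), 4496 to 2587 (HBE labels), 8559 to 5698 (control labels) and 7541 to 4041 (FLII-changed labels), and those of nuclear over cytosol in H1299 vector from 3575 to 2249. No paired analysis was possible because the labels give no replicate numbers by which libraries of 2 groups could be paired. A fit over the fractions of a cell group was not run. Members under about 20 reads in a pair are limited by depth. The percents of HBE NC use total assigned reads. With TMM scaling 55 of them moved and 65 did not, and with DESeq2 size factors 56 moved and 64 did not.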
